A study of Homo sapiens with 8 samples.

Results

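Heat shock proteins and chaperones bind unfolded or newly made proteins and help them fold. The genes described here are those whose symbol begins with HSPA, HSPB, HSPD, HSPE or HSPH, or names HSP90AA1, HSP90AB1, HSP90B1, a DNAJA, DNAJB or DNAJC gene, TCP1 or CCT2 to CCT8, the last including CCT6A. The rule took 147 of 60651 genes, of which 80 are protein coding and 67 are pseudogenes in the annotation used here. The coding genes comprise 14 HSPA genes (the HSP70 family), 1 HSPH gene (an HSP110), 3 HSP90 genes, 1 HSPD gene and 1 HSPE gene (the mitochondrial chaperonin HSP60 and its partner HSP10), 42 DNAJ genes (the HSP40 co-chaperones that deliver clients to HSP70), 7 CCT genes with TCP1 (the 8 subunits of the cytosolic chaperonin TRiC) and 10 genes named HSPB. Among the latter, HSPBP1, HSPBAP1 and HSPB11 match by name and are not small heat shock proteins.

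All libraries came from HEK293TAPA cells, HEK293T human embryonic kidney cells that stably carry an alternative polyadenylation (APA) reporter and were sorted for a medium reporter level. The cells were co-transfected with dPguCas13b, a nuclease-dead Cas13b, together with either the non-targeting guide gNT or gUSE, a guide against the upstream sequence element of the reporter, and were collected after 48 h. Each guide had 2 RNA-seq libraries and 2 libraries of 3′ mRNA ends, 8 in all, and the labels do not say whether they came from separate cultures, so that p-values measure only the spread between these libraries. Every library came from transfected cells, so no level here is set against untransfected or unheated cells.

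RNA-seq libraries held 10259757 to 12977693 counts, and the 3′ end libraries 1593763 to 2380992 reads in the part of the table analysed, which ends within chromosome 7 and holds no polyadenylation site (PAS) of chromosomes 8, 9, X or Y. Of 6 HEK293T-expressed marker genes, IRS4, LIN28B, IGF2BP1, NEFM and PAX2 had 33 to 11492 counts in every RNA-seq library and SOX11 had 0 to 2. IRS4 itself was lower with gUSE, with a log2 fold change of −0.12 (SE 0.0226) and an adjusted p of 0.0370 in edgeR's test. Of 8 markers of other cell types, HBB was at 0 and the other 7 had at most 16 counts in any library. The chaperone genes took 2.52% to 2.58% of the RNA-seq counts and 2.92% to 3.02% of the 3′ end reads assigned to a single gene. These shares cannot be compared, since HSPA5, HSPB1, DNAJA1, DNAJB6 and HSPE1, among others, enter only the first. The second also holds the many reads on the pseudogenes HSPA8P8 and HSPA5P1.

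Many of these genes are driven by HSF1, a transcription factor that is released from chaperones under proteotoxic stress and binds heat shock elements, which are inverted repeats of GAA and TTC. Members that cells make at all times (HSPA8, HSP90AB1, TRiC) are distinguished from members whose transcription rises in stress (HSPA1A, HSPA1B, HSPA6, HSPH1, DNAJB1). Compartment-specific members such as HSPA5 and HSP90B1 in the endoplasmic reticulum, or HSPA9 and HSPD1 in mitochondria, serve the folding of proteins there.

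To show the elements in question, promoters of 300 bases (250 before and 50 after each RefSeq start, GRCh38.p14) were searched on both strands for GAA, TTC and GAA, or TTC, GAA and TTC, each separated from the next by 2 bases of any kind. The motif was present in 172 of 35116 promoters, or 0.490%, and in 4 of 73 promoters of the coding chaperone genes, or 5.48%. The matches were in HSPA6, HSPA8, DNAJA1 and DNAJB6, printed here 5′ to 3′ in gene orientation with the fixed letters of the motif in capitals.
HSPA6 (chr1:161524466-161524478, plus strand): gaaaggTTCgcGAAagTTCgcggcg
HSPA8, distal (chr11:123062354-123062366, minus strand): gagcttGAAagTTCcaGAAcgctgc
HSPA8, proximal (chr11:123062179-123062191, minus strand): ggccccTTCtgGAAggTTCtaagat
DNAJA1 (chr9:33025276-33025288, plus strand): cgggcgGAActTTCcaGAAcgctcg
DNAJB6 (chr7:157336873-157336885, plus strand): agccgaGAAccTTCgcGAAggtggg
HSPA6 and HSPA8, a strictly inducible and a constitutive HSP70, both held the motif. The HSP90 genes, the 7 TRiC genes with a promoter in the table and the small heat shock proteins held none, which says only that these letters were not in that window.

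The 3′ ends of HSPA8 and HSPA5 and of their processed copies HSPA8P8 and HSPA5P1 are printed next, because reads of the 3′ end libraries fell on the copies. These are the last 30 bases of the stretch aligned between parent and copy, from GRCh38, with the AATAAA signal in capitals, and then the 20 genomic bases that follow. The annotated HSPA8 transcript runs 3 bases beyond that stretch and the HSPA5 transcript 1392.
HSPA8: taAATAAAactatttaaaattggcaccata
HSPA8P8: taAATAAAactatttaaaattggcaccata
HSPA8, next 20 bases: caattgctttgagtctttaa
HSPA8P8, next 20 bases: aaaaaagaaaccttaaaaat
HSPA5: agtgacaccAATAAAtgtttgttatttaca
HSPA5P1: agtgacaccAATAAAtgtttgttatttaca
HSPA5, next 20 bases: ctggtctaatgtttgtgaga
HSPA5P1, next 20 bases: aaaagaaaagaaaagaaaag
Over the last 100 aligned bases HSPA8 and HSPA8P8 were identical at 100, and HSPA5 and HSPA5P1 at 99. The 20 bases after the aligned end held 5 A in HSPA8 against 14 in HSPA8P8, and 4 in HSPA5 against 16 in HSPA5P1.

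HSP90 transcripts led the group, followed by the constitutive HSP70, and per length a stress-inducible HSP70 stood among the most abundant mRNAs of these cells. Levels were expressed as RPKM, RNA-seq reads scaled by library size and by kilobases of annotated exon. Among the 16594 genes that had 10 counts or more in 2 or more libraries, HSP90AA1 ranked 25, HSP90AB1 27, HSPA8 45 and HSPA6 87, and 20 chaperone genes were in the top 500.

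HSP90AA1, the stress-responsive cytosolic HSP90, lies at chr14:102080742-102139699 on the minus strand. Its level was 856 and 879 with gNT, against 854 and 864 with gUSE. HSP90AB1, its constitutive counterpart (chr6:44246166-44253888, plus strand), was at 851 and 843 with gNT, against 833 and 859 with gUSE. The levels of the 2 genes overlapped on this scale, with a mean ratio of HSP90AA1 to HSP90AB1 of 1.02 per length. The mean ratio was 1.74 without division by length and 1.41 in the 3′ end reads, where HSP90AA1 was higher in every library. HSP90B1, the HSP90 of the endoplasmic reticulum, had a level of 54.0 ± 0.472 (SD, n = 2) with gNT and 53.7 ± 1.65 (SD, n = 2) with gUSE.

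HSPA6 and the HSPA1 genes, all stress-inducible HSP70s, were at opposite ends of the range in uniquely mapped reads. HSPA6 (chr1:161524540-161526894, plus strand) had 8253 and 8776 RNA-seq counts with gNT, against 7833 and 6929 with gUSE, a level of 281 to 287 in all 4 libraries. That level was 0.596 to 0.613 times the level of HSPA8, the constitutive HSP70 (chr11:123057489-123063230, minus strand), which was at 469 and 481 with gNT and 469 in each gUSE library. Without division by length (2355 bases of exon for HSPA6 and 4849 for HSPA8) the ratio was 0.290 to 0.298. In the separate 3′ end libraries HSPA6 had 3181 and 2147 reads with gNT, against 2875 and 2292 with gUSE.

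HSPA1A (chr6:31815543-31817946, plus strand) had 2 and 4 RNA-seq counts with gNT, against 2 and 3 with gUSE. HSPA1B (chr6:31827738-31830254, plus strand) had 10 and 6 with gNT, against 6 and 11 with gUSE. Counts of both are uncertain, since the authors counted uniquely mapped reads and 75.1% of the 50-base words of the HSPA1A transcript also occur in HSPA1B. HSPA6 shares 45.8% of its 50-base words with the pseudogene HSPA7, which had 73 and 67 counts with gNT, against 74 and 55 with gUSE. At the PASs listed for HSPA1A (4) and HSPA1B (3) no library held a read. By counting error alone a count of 0 allows 3 reads, or 1.41 to 2.12 CPM, reads scaled by library size. That is no upper limit on the level of these genes, because genes around them were empty as well.

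A run of genes around HSPA1A was also empty in the 3′ end table. Of 17 other genes within 500 kb of it with listed PASs and at least 300 RNA-seq counts on average, 14 had 0 reads, against 69 of 6092 such genes (1.13%) in the whole table. No level of HSPA1A or HSPA1B was read from these zeros. DNAJA3, a mitochondrial DNAJ protein, was the only chaperone gene with at least 100 RNA-seq counts and listed PASs that had no 3′ end read, with 13 PASs at 0, while in RNA-seq it had 1255 and 1351 counts with gNT and, in the gUSE libraries, 1175 and 1064. Near DNAJA3, 1 of 8 such genes was at 0.

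**Figure D1:**
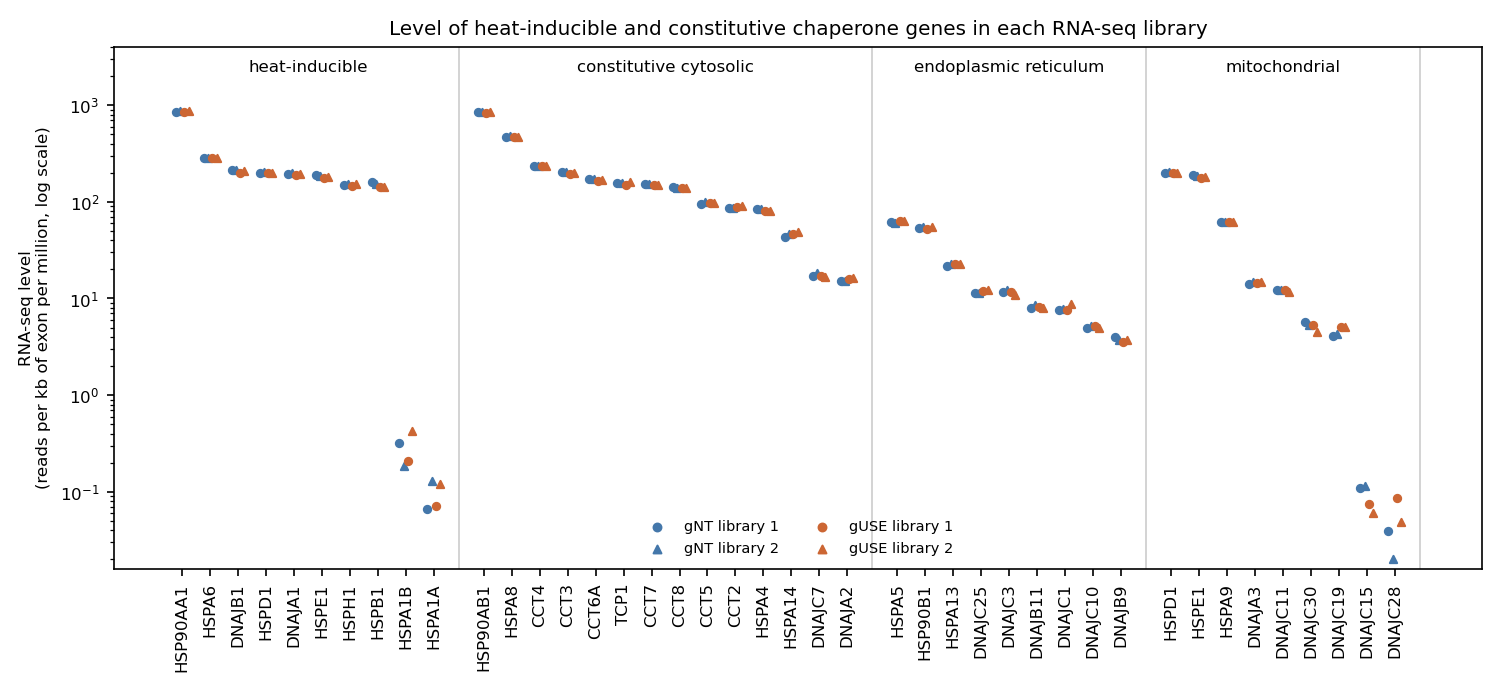
RNA-seq level (RPKM, log scale) of the genes of 4 lists in each gNT library (blue) and gUSE library (orange), ordered within a list by mean level. The 4 libraries of a gene lie close together wherever the level is above 1, HSPA6 stands at 281 to 287 and HSPA1A and HSPA1B below 0.5. HSPD1 and HSPE1 are in both the heat-inducible and the mitochondrial list, and a level of 0 (DNAJC28, gNT library 2) is drawn at 0.02.

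As groups, the heat-inducible and the constitutive cytosolic members were present at similar levels. The 10 heat-inducible genes are HSPA1A, HSPA1B, HSPA6, HSPH1, HSP90AA1, HSPB1, HSPD1, HSPE1, DNAJB1 and DNAJA1, and their levels added up to 2243 and 2268 with gNT, against 2196 and 2224 with gUSE. The 14 constitutive cytosolic genes (HSPA8, HSP90AB1, HSPA4, HSPA14, DNAJA2, DNAJC7 and the 8 TRiC genes) added up to 2723 and 2732 with gNT, against 2684 and 2725 with gUSE. Single genes weigh heavily in both sums, with HSP90AA1 at 863 and HSP90AB1 at 847 over the libraries. HSPA1A and HSPA1B enter the first sum with the uncertain counts given above. The ratio of the sums was 0.827 ± 0.00436 (SD, n = 2) with gNT and 0.817 ± 0.00134 (SD, n = 2) with gUSE. The libraries of the guides did not overlap in this ratio, but 2 libraries against 2 cannot give a two-sided p under 0.333 in an exact permutation test. Without division by length the ratio over the 4 libraries was 1.03 rather than 0.822, so that which group is the more abundant depends on the scale.

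Individual inducible genes other than HSPA1A and HSPA1B had levels of the same order. DNAJB1, the HSP40 that partners inducible HSP70, was at 213 ± 0.368 (SD, n = 2) with gNT, and DNAJA1, a cytosolic HSP40 of the other main class, at 197 ± 0.469 (SD, n = 2). HSPD1 and HSPE1 were at 199 ± 3.61 and 186 ± 2.24 (SD, n = 2). HSPE1 lies inside the interval of HSPD1 on the opposite strand, and the strand setting of the counting was not stated, so part of their reads cannot be assigned with certainty. HSPH1, the inducible HSP110 that exchanges the nucleotide of HSP70, was at 153 ± 2.37 (SD, n = 2), and its ratio to HSPA4, its constitutive relative, averaged 1.84 per length, 3.04 without division by length and 3.54 in the 3′ end reads. HSPB1 (HSP27), the main small heat shock protein, was at 156 ± 7.01 (SD, n = 2).

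Subunits of the TRiC ring, which assemble in equal number, differed in mRNA level. CCT4 had the highest level, 235 averaged over the libraries, and CCT2 the lowest, 88.0, with CCT3, CCT6A, TCP1, CCT7, CCT8 and CCT5 between 97.5 and 199.6. That order held per length only, since without it CCT3 was highest at 771 CPM, and in the 3′ end reads CCT6A was lowest at 616 CPM against 752 for CCT2. In the endoplasmic reticulum list, HSPA5 (BiP) led per length with 61.0 ± 0.673 with gNT and 63.0 ± 0.0416 with gUSE (SD, n = 2), and DNAJB9 was lowest at 3.75 over the libraries. Without division by length HSP90B1 led that list, at 705 CPM against 405 for HSPA5. DNAJC25, DNAJC3 and DNAJC10 of the same list were at 11.7, 11.6 and 5.07 per length. HSPA9 (mortalin), the mitochondrial HSP70, was at 61.7 ± 0.470 with gNT and 61.7 ± 0.530 with gUSE (SD, n = 2). DNAJC11 and DNAJC30 in the mitochondrial list were at 12.1 and 5.22 over the libraries, and DNAJC15 and DNAJC28 were near 0, with at most 12 counts. Of the remaining HSP70 genes, HSPA12A was at 1.38 and HSPA2 at 0.471.

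At the low end, 12 coding genes did not pass the count filter, namely HSPA1A, HSPA1L, HSPA12B, HSPB2, HSPB3, HSPB6, HSPB7, HSPB9, DNAJA4, DNAJB7, DNAJB8 and DNAJC28. The muscle small heat shock proteins HSPB2, HSPB3, HSPB6 and HSPB7 and the testis protein HSPB9 are among them. Of 67 pseudogenes, 35 had no RNA-seq count, 64 had at most 10 in every library, and HSPA7, HSPD1P1 and HSPD1P4 passed the filter.

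More 3′ end reads were assigned to a processed copy of HSPA8 than to HSPA8. HSPA8P8 (chr7:10451311-10453252, plus strand) had 1 and 2 RNA-seq counts with gNT, against 0 and 1 with gUSE. In the 3′ end libraries it had 3346 and 2169 reads with gNT, against 3139 and 2369 with gUSE. HSPA8 itself, with 28335 and 30299 RNA-seq counts with gNT, against 26303 and 23327 with gUSE, had 168 and 127 3′ end reads with gNT, against 123 and 99 with gUSE. The copy therefore took 94.8% ± 0.531 of the reads of the pair with gNT and 96.1% ± 0.170 with gUSE (SD, n = 2).

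Another copy also had many 3′ end reads and few RNA-seq counts. HSPA5P1 (chr1:38708931-38710890, plus strand) had 1416 and 821 3′ end reads with gNT, against 1320 and 898 with gUSE, against 1 to 4 RNA-seq counts. The PASs of HSPA5, on chromosome 9, were not analysed here, so this copy could not be set against its parent. HSPE1P6 had 0 RNA-seq counts and 29 to 55 3′ end reads, 2.57% ± 0.335 of its pair with HSPE1 with gNT and 2.38% ± 0.271 with gUSE (SD, n = 2). HSPD1P4 had 25 to 30 RNA-seq counts and 29 to 40 3′ end reads, and its share of the pair with HSPD1 was 6.09% ± 0.487 with gNT and 7.76% ± 1.69 with gUSE (SD, n = 2). These 4 were the pseudogenes with at least 10 reads in any 3′ end library.

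All 4 copies were aligned to their parent transcripts over 452 to 2502 bases at 94.8% to 97.1% identity, rising to 96 to 100 of the last 100 bases. The last aligned base lay 122 to 482 nt beyond the annotated end of the copy, a stretch that RNA-seq counts of the copies do not cover. Only uniquely mapped reads were counted, and the copies were followed by 8 to 16 A in the next 20 bases against 4 to 6 in the parents. The part of the shared ends and of these A residues in the read counts was not tested.

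The 2 assays ranked the chaperone genes in much the same order, with HSPA8 as the clear exception. For 39 members with at least 50 counts on average in both, the Spearman correlation of CPM in the 3′ end libraries with RNA-seq level was 0.812 across genes, a description, since genes are not independent and share the libraries. The log2 ratio of CPM in the 3′ end libraries to RNA-seq level had a median of 2.71, against 2.74 over 4809 genes. The lowest ratios were those of HSPA8 (−2.67), HSPD1 (0.48), DNAJC8 (0.88), DNAJB4 (1.16) and HSPA13 (1.35). With the reads of HSPA8P8 added, the log2 ratio of HSPA8 was 1.80 instead of −2.67. The highest ratios were those of DNAJC21 (5.04), HSPB8 (4.99), DNAJB1 (4.17), DNAJB11 (4.04) and HSP90B1 (3.97). Annotated exon length enters this ratio, and DNAJC21, DNAJB1, DNAJB11 and HSP90B1 have 8188 to 14282 bases of it.

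**Figure D2:**
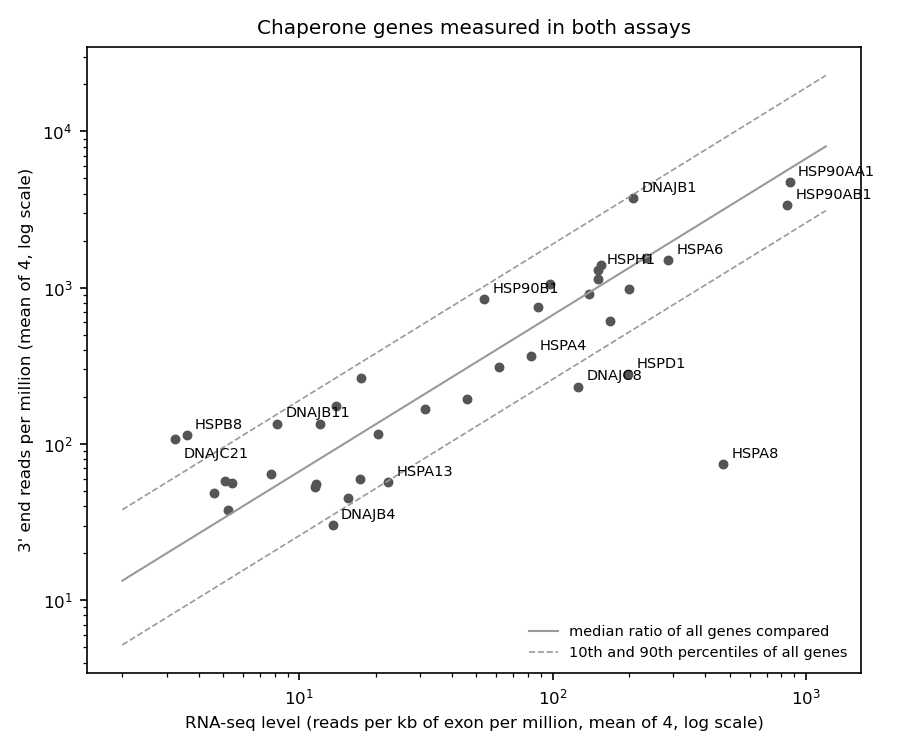
Mean CPM in the 3′ end libraries against mean RNA-seq level, both on log scales, for the 39 chaperone genes with at least 50 counts on average in both assays. The grey lines give the median and the 10th and 90th percentiles of the ratio over 4809 genes; 5 members lie below the lower dashed line, HSPA8 the farthest, and 2 above the upper one.

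No chaperone gene passed the test between gUSE and gNT in RNA-seq. The comparison asks whether the guide against the reporter changes genes of the cell, and edgeR's quasi-likelihood test called 13 of 16594 genes (0.0783%) at an adjusted p under 0.05 and 0 of 71 members. In such bulk libraries, fewer cells with a transcript and less of it per cell cannot be told apart. At an unadjusted p under 0.05 the members numbered 16, or 22.5%, against 7.97% of all genes tested. DESeq2 called none either and gave 3 members, or 4.23%, against 1.28% of all genes. Of the 16, 13 were lower with gUSE, where 4.02% of all genes had such a p in that direction, and 3 were higher, where 3.95% did. The median tested member had 909 counts and the median tested gene 236, and the part of this higher count in the larger share was not tested.

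The differences were small. Over 71 members the median log2 fold change was −0.01 and over all genes 0.00, 39 members were below 0 where 49.7% of all genes were, and 1 member, DNAJC15 with at most 12 counts, had a fold change beyond 0.5. Below an unadjusted p of 0.05, the log2 fold changes ran from −0.34 to 0.26. With the library totals in place of TMM factors, 36 of 71 members were higher with gUSE and 35 lower, against 32 and 39.

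HSPB1 (chr7:76302673-76304295, plus strand) had the smallest p. Its level was 161 and 151 with gNT, against 143 and 141 with gUSE. The libraries of the guides did not overlap, and the log2 fold change was −0.15 (SE 0.0351) with an adjusted p of 0.194 in edgeR's test. HSPB1 passed the threshold in edgeR's test without the count filter, with an adjusted p of 0.0198. It did not pass with DESeq2, with other scaling or with robust estimation. Its log2 fold change depended on single libraries, at −0.10 without the first gNT library and −0.19 without the second. Without the first or the second gUSE library it was −0.16 or −0.13.

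Other members named by the 10 smallest p were each at an adjusted p of 0.370 or above in edgeR's test. DNAJB1 was at 213 in each gNT library and at 201 and 207 with gUSE, for a log2 fold change of −0.07 (SE 0.0213). CCT6A was at 173 in each gNT library and at 164 and 167 with gUSE, for a log2 fold change of −0.08 (SE 0.0238). HSPA4 and HSPA4L, both HSP110 relatives, differed by −0.07 (SE 0.0264) and −0.08 (SE 0.0307). DNAJB5 and DNAJB2, neither of them abundant, had the larger differences of −0.34 (SE 0.109) and −0.27 (SE 0.0886), on 162 to 263 and 270 to 442 counts. Higher with gUSE were DNAJC19, of the mitochondrial import motor, by 0.26 (SE 0.0941), DNAJB14 by 0.22 (SE 0.0813) and DNAJC5, the cysteine string protein of vesicles, by 0.14 (SE 0.0504). Leaving out the second gUSE library moved DNAJB14 to 0.10 and DNAJB2 to −0.15, and leaving out the first moved HSPA4L to −0.05.

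Read by list, the lower values at an unadjusted p under 0.05 were 4 of 9 heat-inducible members tested (HSPB1, DNAJB1, HSPE1, DNAJA1) and 4 of 14 constitutive cytosolic members (CCT6A, HSPA4, CCT3, DNAJC7), where 4.02% of all genes were lower at such a p. Both tested small heat shock proteins, HSPB1 and HSPB8, were lower at such a p, and of 8 mitochondrial members HSPE1 was lower and DNAJC19 higher. The endoplasmic reticulum list had 0 of 9 and the HSP90 genes 0 of 3, and no list held a call. The median log2 fold change was −0.04 for the heat-inducible list, −0.03 for the constitutive list and 0.00 for the endoplasmic reticulum list, against 0.00 for all genes. HSPA6 was at −0.02 to 0.00 in the 2 assays, with adjusted p-values of 0.977 in RNA-seq and 0.919 in the 3′ end reads by edgeR's test.

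Regulators and co-chaperones outside the rule were tested in the same fit. Of 31 such genes in RNA-seq none was called, and 4 (BAG3, ST13, TRAP1 and STIP1) had an unadjusted p under 0.05, where 7.97% of all genes did, each lower with gUSE by 0.06 to 0.08 on the log2 scale. HSF1 and HSF2, transcription factors of the heat shock response, had log2 fold changes of −0.00 (SE 0.0465) and 0.09 (SE 0.0626). Of 12 genes of the unfolded protein response none was called, and HERPUD1 was the one with an unadjusted p under 0.05, at a log2 fold change of 0.21 (SE 0.0743).

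In the 3′ end reads, 1 chaperone gene was lower with gUSE. Reads were summed over the PASs that name a single gene, and edgeR's test called 41 of 8518 genes (0.481%) and 1 of 54 members, HSPH1. HSPH1 (chr13:31134973-31162388, minus strand) had 2803 and 2092 reads with gNT, against 2354 and 1804 with gUSE, or 1322 and 1478 CPM against 1199 and 1188. The guides did not overlap, and the log2 fold change was −0.23 (SE 0.0535) with an adjusted p of 0.0369. In RNA-seq the level of HSPH1 was 151 and 154 with gNT, against 148 and 152 with gUSE, which overlapped, at a log2 fold change of −0.04 (SE 0.0225) and an adjusted p of 0.717 in edgeR's test. Without the second gNT library the log2 fold change was −0.14 and the adjusted p 0.536 in edgeR's test. The call was also lost, at log2 fold changes of −0.22 to −0.23, with DESeq2 (adjusted p = 0.0850) and without either gUSE library (0.689 and 0.566).

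Of the 54 members, 5 had an unadjusted p under 0.05 in the 3′ end reads, or 9.26%, against 10.6% of all genes. Besides HSPH1 these were HSPA8 (−0.39, SE 0.150), CCT6A (−0.16, SE 0.0628), DNAJC5 (0.23) and CCT2 (0.12, SE 0.0575), each at an adjusted p of 0.299 or above in edgeR's test. HSPA8 had 79.2 and 89.7 CPM with gNT, against 62.6 and 65.2 with gUSE, while its copy HSPA8P8 had a log2 fold change of 0.02 (SE 0.0477), so that the sum of both was 1657 and 1622 with gNT, against 1661 and 1626 with gUSE. Of 51 members tested in both assays, CCT6A and DNAJC5 had an unadjusted p under 0.05 in both, in the same direction in each. The share of all genes that did so was not computed, so this count is a description only. By direction, 3 of the 5 were lower, where 5.58% of all genes had such a p, and 2 were higher, where 5.02% did. The median over the 54 members was −0.04 and over all genes 0.00, with 34 members below 0 where 49.3% of all genes were.

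Outside the rule, 25 co-chaperones and regulators and 11 genes of the unfolded protein response were tested in the 3′ end reads and none was called. BAG3, ST13 and PTGES3 were lower and CDC37 higher at an unadjusted p under 0.05, and of the second list CALR was lower.

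**Figure D3:**
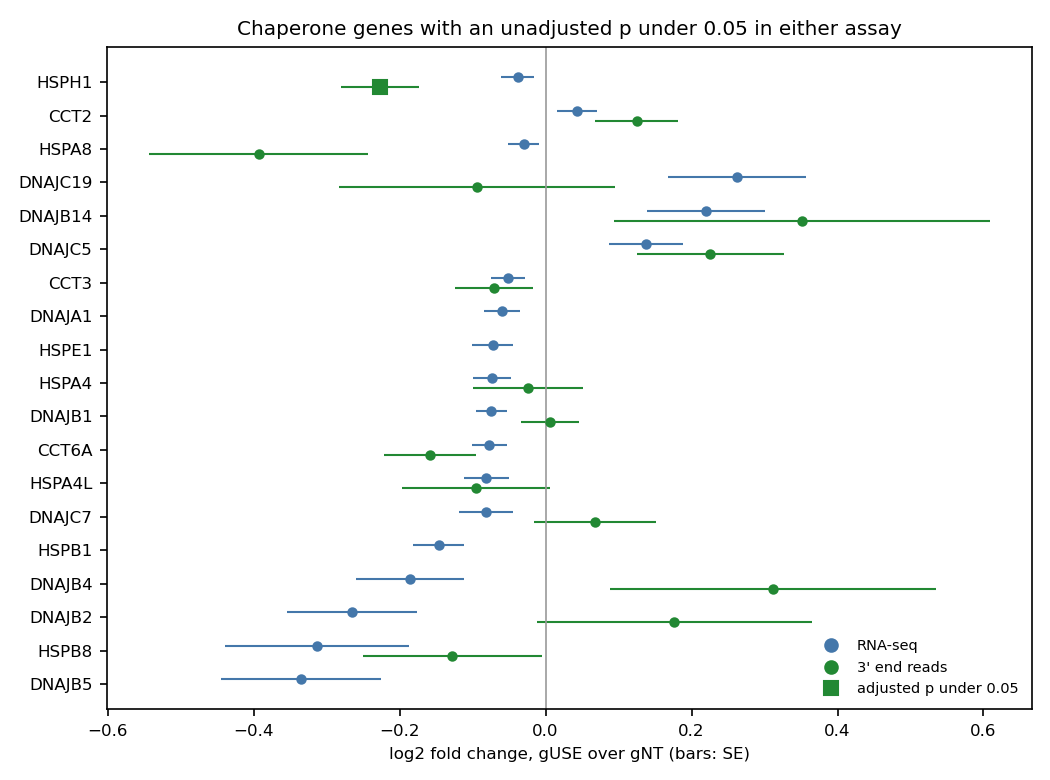
Log2 fold change of gUSE over gNT with its SE in RNA-seq (blue) and in 3′ end reads summed per gene (green) for the members with an unadjusted p under 0.05 in either assay. The square marks HSPH1 in the 3′ end reads, the sole value at an adjusted p under 0.05, and 4 of the 16 genes from RNA-seq (HSPB1, DNAJA1, DNAJB5 and HSPE1) have no 3′ end value.

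Most chaperone genes with an expressed polyadenylation site had several, and the main site was often not the last one. A PAS was taken as expressed if 2 or more libraries had 5 or more reads there, and usage was the share of a gene's reads at its expressed PASs. Of 56 members with an expressed PAS, 42 had several, up to 12 in HSP90AA1. The leading PAS was the most distal in 18 of the 42 and lay upstream of it in 24. In 35 of the 42 the same PAS led in all 4 libraries. These counts describe the members only, since the shares over all genes were not computed. Minor sites enter them, and DNAJB1, with 98.5% of its reads with gNT at 1 PAS, is among the 42 and the 24. PAS positions are given as the deposited table lists them, on a build that is not named and differs from GRCh38, and distances are within a gene.

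HSP90AA1 spread its 3′ end reads over 2 groups of PASs. The leading one, at chr14:102547385-102547429 and 306 nt upstream of the most distal, had 3725 reads or 37.3% in the first gNT library (Wilson 95% interval 36.3 to 38.2) and 38.2% in the second, and 33.2% and 34.2% with gUSE. The 6 PASs that lay 2319 to 4607 nt upstream together held 58.6% ± 0.768 of the reads with gNT and 62.2% ± 0.221 with gUSE (SD, n = 2). The guides did not overlap in either share. The leading PAS had an unadjusted p of 0.0166 and an adjusted p of 0.949 in edgeR's test of usage. HSP90AB1 was similar in form, since 2 PASs 3446 and 3498 nt upstream of the most distal held 71.3% ± 0.361 with gNT and 71.5% ± 1.93 with gUSE (SD, n = 2), and the most distal 23.0% and 22.9% with gNT, against 22.8% and 21.1% with gUSE.

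DNAJB1 and HSPH1 ended mainly at a single site. DNAJB1 had 98.5% ± 0.467 of its reads at a PAS 584 nt upstream of the most distal with gNT and 98.4% ± 0.163 with gUSE (SD, n = 2). HSPH1 had 87.8% ± 0.339 at a PAS 1585 nt upstream with gNT and 87.8% ± 0.696 with gUSE (SD, n = 2), so that its lower 3′ end reads with gUSE came with no usage change beyond the spread. HSPA6 had 2 expressed PASs 111 nt apart, the upstream one with 74.8% and 73.7% with gNT, against 76.6% and 73.1% with gUSE. HSPE1, whose PASs also name the readthrough gene HSPE1-MOB4 and were left out of the tests, had 85.3% ± 2.26 at the middle of 3 PASs with gNT and 83.1% ± 0.428 with gUSE (SD, n = 2).

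The counted reads of HSPD1 were divided between distant sites. A PAS 511 nt upstream of the most distal had 50.3% and 42.4% with gNT, against 45.9% and 43.4% with gUSE, and a PAS 11225 nt upstream had 36.5% and 43.2% with gNT, against 42.2% and 46.9% with gUSE. The guides overlapped at both, and the Wilson interval of the second gNT library at the upstream PAS ran from 38.5 to 48.0. Only uniquely mapped reads were counted, and 27.1% of the 50-base words of the HSPD1 transcript occur in other genes. HSPD1 and its copy HSPD1P4 were identical at 98 of the last 100 aligned bases. Reads at shared ends may therefore be missing, and the part of this in the shares of HSPD1 was not tested. HSPA4 had 51.4% ± 1.24 of its reads with gNT and 48.6% ± 0.572 with gUSE (SD, n = 2) at a PAS 1975 nt upstream of the most distal. At 3 PASs of HSPA4 that lay 15075 to 53477 nt upstream it had 18.2% ± 0.0529 with gNT and 18.8% ± 0.668 with gUSE (SD, n = 2).

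Among the TRiC genes, CCT4 ended at a pair of PASs 299 and 403 nt upstream of the most distal, which together held 95.7% of its reads with either guide. CCT2 had 98.2% ± 0.112 with gNT at its most distal PAS, and CCT7 and CCT8 had a single expressed PAS. TCP1, CCT5 and CCT3 each had more than 80% at 1 PAS (93.5%, 81.7% and 89.9% with gNT). CCT6A was split, with 48.1% ± 1.37 at a PAS 585 nt upstream and 43.2% and 43.7% at the most distal with gNT.

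**Figure D4:**
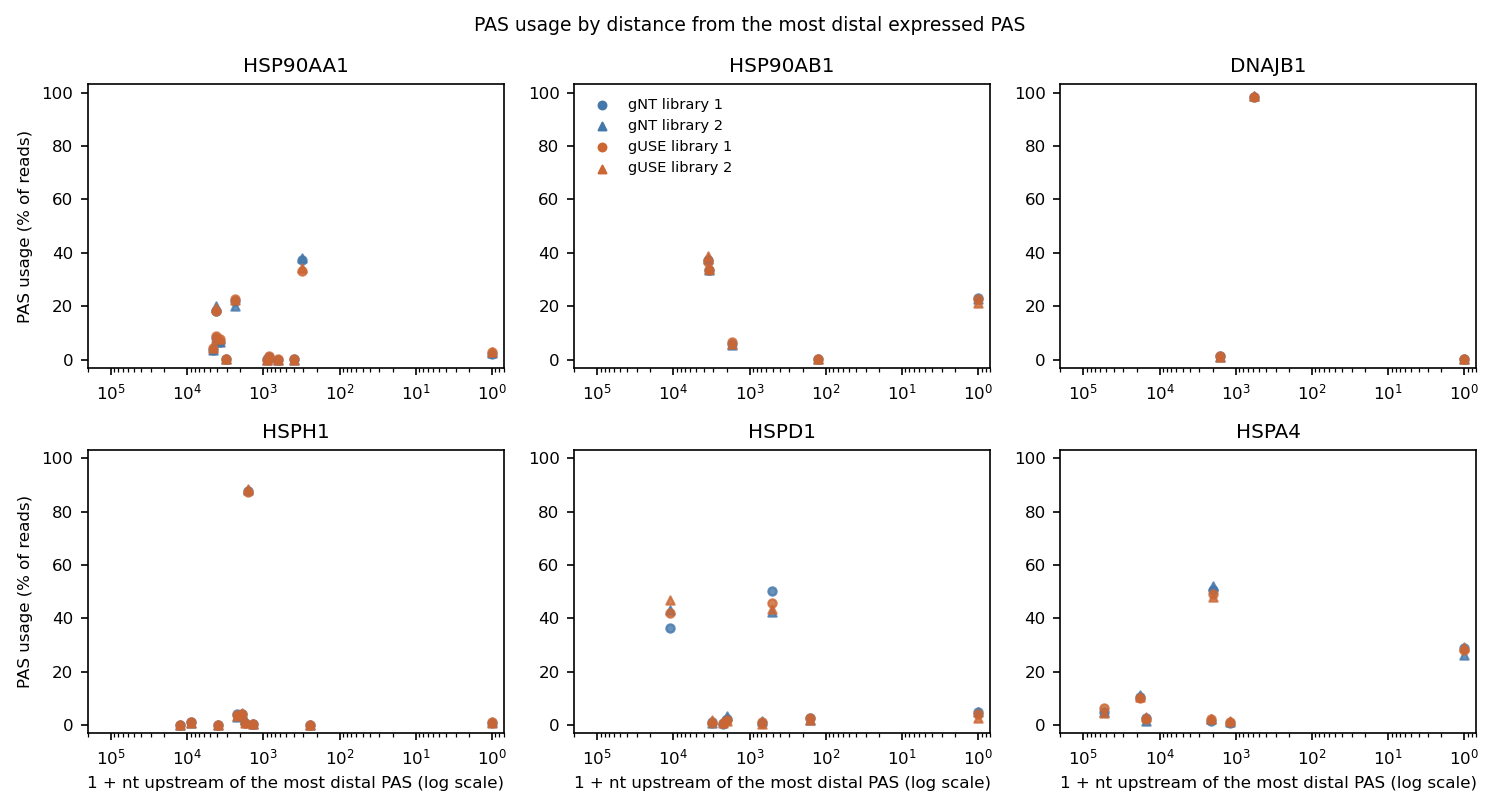
PAS usage (percent of the gene's reads at expressed PASs) against the distance upstream of the most distal expressed PAS (1 plus nt, log scale, 5′ to the left) in 6 chaperone genes, by guide and library. DNAJB1 and HSPH1 have a single leading PAS, HSP90AA1, HSP90AB1 and HSPD1 have leading PASs in more than 1 place, and the guides lie on top of each other at most sites.

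No member PAS was called as changed in usage between gUSE and gNT, with 2 libraries of each. The edgeR test, which sets a PAS against the rest of its gene, called 0 of 14997 PASs (0.0%) and 0 of 160 member PASs in 41 genes. An unadjusted p under 0.05 was reached by 8 member PASs against 661 (4.41%) of all, and the smallest adjusted p of a member PAS was 0.805. Usage differed by more than 0.1 at 9 member PASs against 1749 (11.7%) of all PASs tested, all 9 in genes with 40 to 162 reads in the 4 libraries together (DNAJC1, DNAJC12, DNAJC16, DNAJC24 and HSPBAP1). The median usage difference in size was 0.00943 for member PASs and 0.0258 for all.

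PASs of the same gene are not independent in this test, since each is set against the rest of its gene. Of the 5 member PASs with the smallest p, 3 were in HSP90AA1, including the leading PAS. The others were a PAS of CCT3 11889 nt upstream of its most distal one, with 10.1% and 9.27% of the reads with gNT, against 12.9% and 11.9% with gUSE, and a PAS of HSPA9 with 2 and 1 reads with gNT, against 10 and 5 with gUSE. The difference at CCT3 was 2.72 percentage points, with an unadjusted p of 0.0100 and an adjusted p of 0.805 in edgeR's test.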

How the data were processed

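The authors trimmed adaptors with cutadapt, aligned reads to hg38 with STAR (2.7.9 in the submitters' processing notes) and counted uniquely mapped reads with featureCounts, per gene of Gencode v37 for RNA-seq and within 24 nt of each PolyA_DB3 PAS for the QuantSeq REV libraries, whose reads start at the poly(A) junction. The deposited values are raw counts, not pooled over replicates, and the strand setting is not given in the sources used here. Levels used exon lengths of GENCODE v44. Of 228494 PASs, 140859 name 1 gene, which set library sizes, and PASs that name no gene (6.57% to 7.26% of reads) were left out.

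Tests were edgeR's glmQLFTest and diffSpliceDGE, with TMM factors and Benjamini-Hochberg adjustment over all genes or PASs tested. For the 3′ end libraries these are the genes and PASs of the part analysed, which ends within chromosome 7. Genes needed at least 10 counts in at least 2 libraries, and usage calls an adjusted p under 0.05 with a usage change above 0.1. DEXSeq, used by the authors, was not run. Alternatives covered DESeq2, scaling, filters, robust dispersion, a replicate block and leaving out each library. Wilson 95% intervals, and the 3 reads that a count of 0 allows, cover counting error only. Scripts were tested on simulated counts.

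Named were all list genes that are members, members past an adjusted p of 0.05 or, up to the 10 smallest p, an unadjusted p of 0.05, the 12 members with most reads and several PASs, members of the 5 PASs with the smallest p, and the 5 highest and lowest ratios between assays. Members of these and of all lists were chosen with earlier results of these data known. The processed copies, the genes at 0 around HSPA1A and the genes with usage changes above 0.1 were singled out after their values were seen. Analyses ran in Python 3.11.15 with pandas 2.3.3, and in R 4.3.3 with DESeq2 1.42.0 and edgeR 4.0.16.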

Additional observations from a re-analysis of the deposited data

How the results depend on the processing

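With 1 setting changed at a time, the count of members called in RNA-seq was 0 except without the count filter (1, HSPB1) and, leaving out each library, ranged from 0 to 1. In the 3′ end reads it was 1 (HSPH1) except with DESeq2 (0), and 0 to 1 leaving out each library. No setting called a member PAS, leave-one-out included (0 to 0). The median log2 fold change of the members, leaving out each library, ran from −0.022 to −0.0048 in RNA-seq and from −0.048 to −0.0096 in 3′ end reads, and library totals put the RNA-seq median at 0.00022 instead of −0.0095. The level ratio of inducible to constitutive members was 1.03 without division by length. Over all genes, the 13 RNA-seq calls became 1 with DESeq2, 58 without the filter and 14 to 62 leaving out a library; the 41 calls in 3′ end reads became 14 with DESeq2, 66 without the filter, 74 with robust estimation, 64 over expressed PASs and 0 to 55 leaving out a library. Of 204 refitted values for the genes named by p, none changed direction. That carries no weight, since these genes were chosen by p in the same libraries. In all 16 of the RNA-seq genes the levels of the guides did not overlap to begin with. The share of all genes without overlap was not computed, so that count is a description of genes already picked by p. Adding PASs that name several genes was chosen after seeing the data and left the count at 1. Where a group was left with 1 library, that library was assumed to vary like the others.

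The replicate numbers of the 3′ end libraries are shared by both guides, but nothing says that they mark a shared culture, and the deviations of same-numbered libraries correlated at r = 0.112 over 4249 genes in 2 pairs. A replicate block raised the calls over all genes from 41 to 179 and kept the members called at 1, HSPH1 with an adjusted p of 2.43e-06 in edgeR's test. Its median of the members was −0.04 and it called 0 member PASs in usage. RNA-seq libraries carry no shared numbers.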
